A study of Mus musculus with 5 samples.

Results

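The genes described are the semaphorins, plexins, neuropilins, ephrins and Eph receptors, families of cell-surface and secreted proteins through which cells repel, attract or adhere to each other. They were taken by symbol from the 32285 genes counted: 20 semaphorins, 9 plexins, 2 neuropilins, 8 ephrins and 14 Eph receptors, 53 genes in all. They were measured by single-cell RNA-seq in 5 libraries from mice labelled C57BL/6N. Of these, 3 were of the penis at postnatal day 6 (P6), with the prepuce removed. The other 2 were of limbs of male embryos at embryonic day 15 (E15), 1 of forelimbs and 1 of hindlimbs. The labels name no engineered allele and no treatment in any group. The labels do not say which animal or litter gave which penis library, nor whether the limb libraries came from the same embryos. Between tissues, p-values below measure the spread between these libraries. Tests between cell types, and of whether tissue effects differ between types, hold a term for each library. There p-values measure how the difference between types varies over libraries. In every test the spread of each gene was also moderated by that of all genes together. The p-values lean most on all genes where only 2 or 3 libraries were used. Forelimb and hindlimb were compared with penis as 1 group of 2 libraries, and in that comparison tissue and age cannot be told apart.

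Semaphorins are ligands that signal mainly through plexins, whose cytoplasmic part acts on small GTPases of the cytoskeleton. The secreted class 3 semaphorins mostly bind a neuropilin, *Nrp1* or *Nrp2*, which pairs with a plexin-A, whereas *Sema3e* binds *Plxnd1* without one. Ephrins are membrane-bound ligands for Eph receptor tyrosine kinases, A-type ephrins being held by a lipid anchor and B-type ephrins spanning the membrane, and both sides of the contact can signal. These families were described first in axon guidance and are also known from vessel patterning, immune cells, neural crest migration and the skeleton.

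Levels are UMI counts added up within each library for all cells of a type and scaled to the total UMIs of those cells (CPM, the same scale for every library and type). A cell was placed in a type when it held UMIs of a minimum number of the type's 7 to 10 marker genes, none of which is a member, and the types are named "-like" because they rest on markers alone. After filtering, the penis libraries held 5708 to 7085 cells and the limb libraries 20514 and 22057, with medians of 8791.5 to 9909 UMIs per penis cell and 5358 to 6057 per limb cell. Between 79.5% and 90.3% of the cells of a library were placed in a type. In mesenchyme-like, endothelial-like, mural-like, epithelial-like, leukocyte-like, glial-like, tendon-like and muscle-like cells, each marker of the type's own list was detected in every library tested. No pair of libraries shared more than 124 cell barcodes. In the GENCODE vM21 annotation, 15 members overlap another gene on the same strand, where reads may be shared. The smallest sums rested on 56 to 111 mural-like, 38 to 248 tendon-like and 20 to 21 bone-forming-like cells per library. A member passed a comparison at an adjusted p under 0.01 with a log2 fold-change beyond 1 in either direction, in edgeR's quasi-likelihood test over all genes with Benjamini-Hochberg adjustment.

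Transcripts of mesenchyme were also present in the sums of other types. Over the 10 mesenchyme markers, the median level in leukocyte-like cells was 8.86% to 11.6% of that in mesenchyme-like cells in penis and 12.1% to 15.8% in the limbs. In endothelial-like cells it was 7.45% to 8.81% in penis and 10.7% to 17.3% in the limbs, in epithelial-like cells 4.69% to 8.94% and 12.9% to 17.9%, and in glial-like cells 8.70% to 13.0% and 25.2% to 26.1%. In every library, 13 of the 23 members lower in endothelial-like than in mesenchyme-like cells were at no larger a share of their mesenchyme-like level than the highest marker, as were 4 of 16 in epithelial-like, 5 of 34 in leukocyte-like, 10 of 12 in glial-like and 20 of 29 in muscle-like cells. The highest marker is a looser measure than the median. It was at 25.7% to 41.0% in endothelial-like, 12.7% to 42.6% in epithelial-like and 11.0% to 19.8% in leukocyte-like cells over the libraries. In glial-like cells it was at 37.1% to 58.5%, and in limb muscle-like cells at 30.6% and 31.4%.

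Plexins, the semaphorin receptors, led several cell types. Of the 9 types compared with mesenchyme-like cells of the same libraries, the member with the highest log2 fold-change was a plexin in 5, and a different plexin each time. They were *Plxnd1* in endothelial-like, *Plxnb1* in epithelial-like, *Plxnc1* in leukocyte-like, *Plxnb3* in glial-like and *Plxna2* in muscle-like cells. The study that reported these data had already listed *Plxnd1* among its endothelial and *Plxna2* among its muscle markers. Both were left out of the gates here as members. *Plxnd1* stood at 694, 687 and 739 CPM in the 3 penis libraries and 391 and 441 CPM in forelimb and hindlimb in endothelial-like cells, and at 19.5, 19.6 and 19.9 CPM in the 3 penis libraries and 7.78 and 7.73 CPM in forelimb and hindlimb in mesenchyme-like cells (log2 fold-change 5.47 ± 0.14, SE, adjusted p = 8.80e-07). All 5 endothelial-like values lay above every mesenchyme-like value. *Plxnb3* stood at 63.7, 77.5 and 68.5 CPM in the 3 penis libraries and 40.3 and 39.1 CPM in forelimb and hindlimb in glial-like cells, where the mesenchyme-like values were at most 1.17 CPM (log2 fold-change 6.33 ± 0.49, SE, adjusted p = 1.15e-04).

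**Figure D1:**
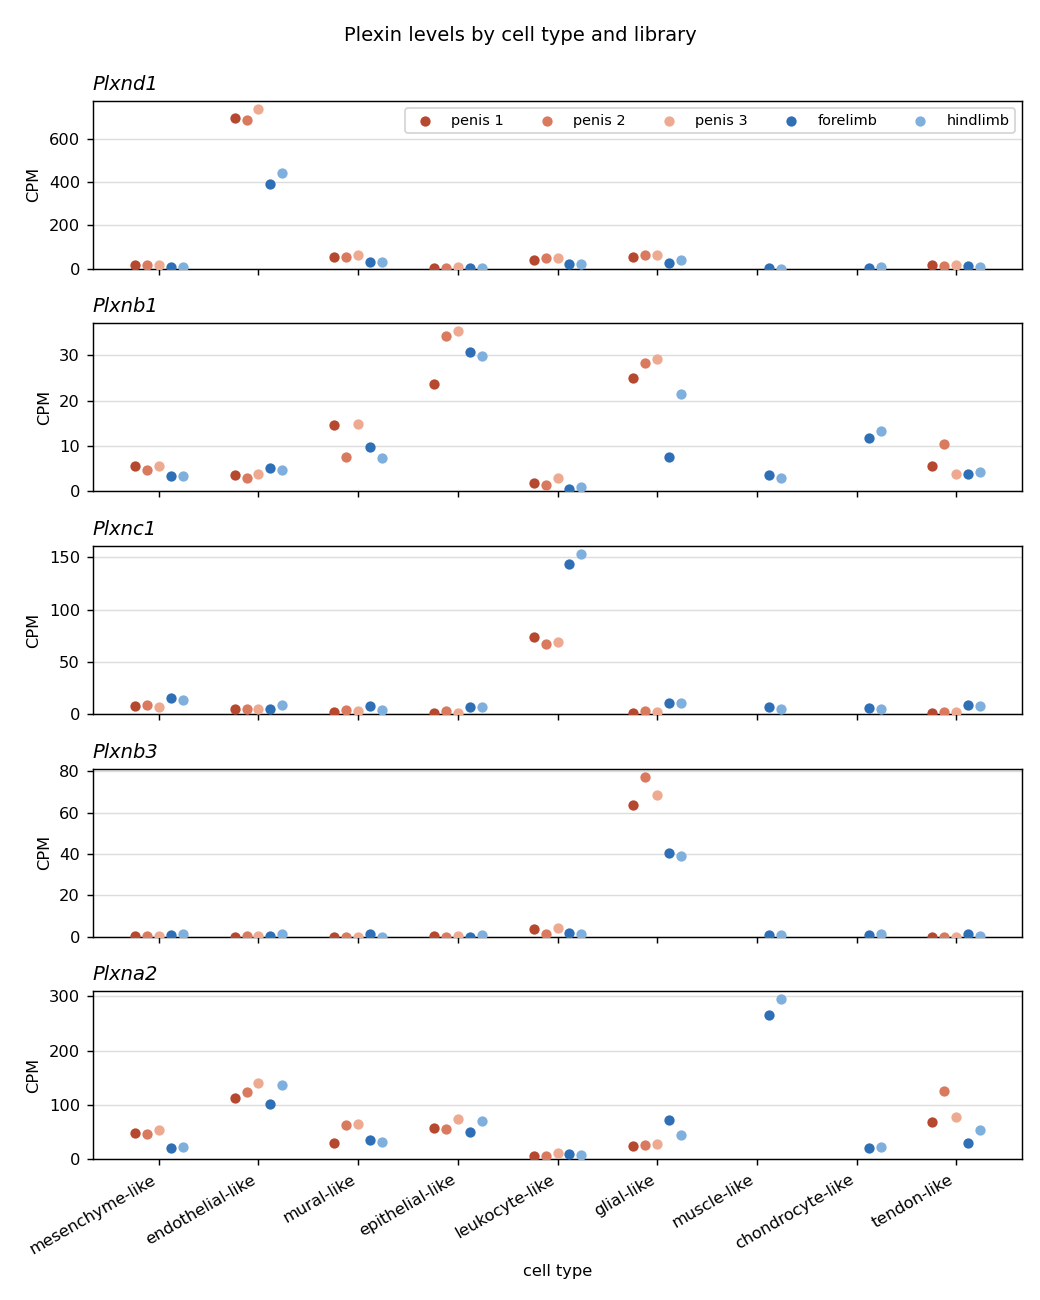
Level in CPM (vertical axis, linear, from 0) of 5 plexins in 9 marker-gated cell types (horizontal axis), with 1 point per library (reds, 3 penis libraries; blues, forelimb and hindlimb). By the mean over libraries the first 4 are each highest in another type in both tissues and *Plxna2* in a further type in the limbs, with *Plxnd1* at 391 to 739 CPM in endothelial-like cells, *Plxnb1* at 23.6 to 35.3 CPM in epithelial-like cells, *Plxnc1* at 66.8 to 153 CPM in leukocyte-like cells, *Plxnb3* at 39.1 to 77.5 CPM in glial-like cells and *Plxna2* at 265 to 295 CPM in muscle-like cells.

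*Plxnc1*, the receptor of *Sema7a*, stood in leukocyte-like cells at 74.2, 66.8 and 68.8 CPM in the 3 penis libraries and 144 and 153 CPM in forelimb and hindlimb (log2 fold-change 3.48 ± 0.12, SE, adjusted p = 1.57e-06). The limb values lay above the penis values without overlap. *Plxnb1*, the receptor of *Sema4d*, stood in epithelial-like cells at 23.6, 34.2 and 35.3 CPM in the 3 penis libraries and 30.7 and 29.8 CPM in forelimb and hindlimb (log2 fold-change 2.96 ± 0.18, SE, adjusted p = 1.69e-05), with the tissues overlapping. *Plxna2*, a co-receptor of class 3 and receptor of class 6 semaphorins, was at 265 CPM in the forelimb and 295 CPM in the hindlimb in muscle-like cells, which only the limbs held, against 21.8 and 23.2 CPM in their mesenchyme-like cells (log2 fold-change 4.03 ± 0.04, SE, adjusted p = 1.66e-13).

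Of the gated types, the share of cells with at least 1 UMI of *Plxnd1* was highest in endothelial-like cells, that of *Plxnb3* in glial-like cells and that of *Plxnc1* in leukocyte-like cells, in every library. *Plxnd1* was found in 95.3% ± 1.60 (SD, n = 3) of penis endothelial-like cells, 84.9% (95% Wilson interval 80.9% to 88.2%) of forelimb and 88.3% (84.1% to 91.4%) of hindlimb ones. The penis endothelial-like cells had medians of 9242 to 9644 UMIs. In penis mesenchyme-like cells, with medians of 9192 to 10483 UMIs, it was found in 16.8% ± 0.603 (SD, n = 3). In cells with at least 2000 UMIs, the share expected after thinning to 2000 UMIs was calculated, without a random draw and with the gates unchanged. For endothelial-like cells it was 71.2% ± 1.47 (SD, n = 3) in penis and 54.3% and 56.5% in forelimb and hindlimb. For penis mesenchyme-like cells it was 4.04% ± 0.102 (SD, n = 3). The shares after thinning below are of this kind. *Plxnb3* was found in 43.6% ± 5.34 (SD, n = 3) of penis glial-like cells and in 0.445% ± 0.100 (SD, n = 3) of penis mesenchyme-like cells, 12.6% ± 1.10 and 0.0791% ± 0.0249 after thinning. *Plxnc1* was found in 50.5% (48.0% to 53.1%) of forelimb and 54.2% (51.6% to 56.9%) of hindlimb leukocyte-like cells, and in 30.1% ± 2.54 (SD, n = 3) of penis ones. In mesenchyme-like cells it was found in 6.78% ± 0.895 (SD, n = 3) in penis and in 8.74% and 8.70% in forelimb and hindlimb. After thinning the leukocyte-like shares were 22.1%, 22.2% and 11.1% ± 0.441 (SD, n = 3), with the limbs above penis before and after thinning. Intervals cover counting error only.

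The promoters of these 5 plexins are shown because each leads another cell type. Each is 250 bases before to 50 after the gene's start in RefSeq, on GRCm38.p6, read 5′ to 3′ on the gene's strand. Capitals mark matches, on either strand, to 4 motifs: AGGAAG (ETS type), ACAAAG (SOX type), CAGCTG (an E-box) and GCCNNNGGC (AP-2 type). The *Plxnd1* window lies at chr6:115994956-115995255 on the minus strand, *Plxnb1* at chr9:109095186-109095485 (plus), *Plxnc1* at chr10:94944796-94945095 (minus), *Plxnb3* at chrX:73756853-73757152 (plus) and *Plxna2* at chr1:194619579-194619878 (plus).
Plxnd1: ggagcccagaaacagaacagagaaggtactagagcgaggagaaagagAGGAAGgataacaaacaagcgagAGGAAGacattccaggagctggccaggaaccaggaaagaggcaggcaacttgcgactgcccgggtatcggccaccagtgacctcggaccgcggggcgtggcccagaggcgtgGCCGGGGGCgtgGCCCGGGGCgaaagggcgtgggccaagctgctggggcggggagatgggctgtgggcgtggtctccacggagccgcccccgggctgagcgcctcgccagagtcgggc
Plxnb1: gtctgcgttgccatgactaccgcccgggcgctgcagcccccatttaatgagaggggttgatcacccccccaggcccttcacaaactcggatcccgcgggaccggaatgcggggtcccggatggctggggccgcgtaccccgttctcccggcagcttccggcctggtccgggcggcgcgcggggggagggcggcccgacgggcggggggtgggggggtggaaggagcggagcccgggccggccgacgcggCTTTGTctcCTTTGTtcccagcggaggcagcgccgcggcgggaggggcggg
Plxnc1: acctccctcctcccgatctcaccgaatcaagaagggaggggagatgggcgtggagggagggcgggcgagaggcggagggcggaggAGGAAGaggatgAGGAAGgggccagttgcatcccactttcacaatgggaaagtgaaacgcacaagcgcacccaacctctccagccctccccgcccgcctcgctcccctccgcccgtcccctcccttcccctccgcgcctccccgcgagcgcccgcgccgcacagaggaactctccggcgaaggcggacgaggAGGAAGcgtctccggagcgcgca
Plxnb3: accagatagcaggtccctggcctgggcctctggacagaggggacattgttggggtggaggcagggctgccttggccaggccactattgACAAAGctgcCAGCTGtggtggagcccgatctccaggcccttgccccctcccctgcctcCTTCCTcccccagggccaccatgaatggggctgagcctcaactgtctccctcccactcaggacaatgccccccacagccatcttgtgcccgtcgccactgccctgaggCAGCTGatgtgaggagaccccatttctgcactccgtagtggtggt
Plxna2: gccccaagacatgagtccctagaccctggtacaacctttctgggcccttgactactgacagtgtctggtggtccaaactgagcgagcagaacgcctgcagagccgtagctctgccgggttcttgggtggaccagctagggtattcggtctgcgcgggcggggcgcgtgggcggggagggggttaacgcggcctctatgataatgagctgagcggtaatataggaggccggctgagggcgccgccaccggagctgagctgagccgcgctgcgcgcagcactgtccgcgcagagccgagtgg

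The *Plxnd1* window held 2 matches to the ETS type and 2 to the AP-2 type, the *Plxnc1* window 3 to the ETS type and the *Plxnb1* window 2 to the SOX type. The *Plxnb3* window held 1 ETS type, 1 SOX type and 2 E-box matches, and the *Plxna2* window none of the 4. Of all 32851 promoter windows of this length, 35.4% held the ETS type, 18.7% the SOX type, 16.3% the E-box and 16.6% the AP-2 type. Among the 61 windows of the 47 members with an entry, the shares were 37.7%, 16.4%, 14.8% and 23.0%. The windows shown were GC-rich, at 63.7% to 74.7% against a median of 52.7% over all windows. A match is a run of letters and no evidence of binding.

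**Figure D2:**
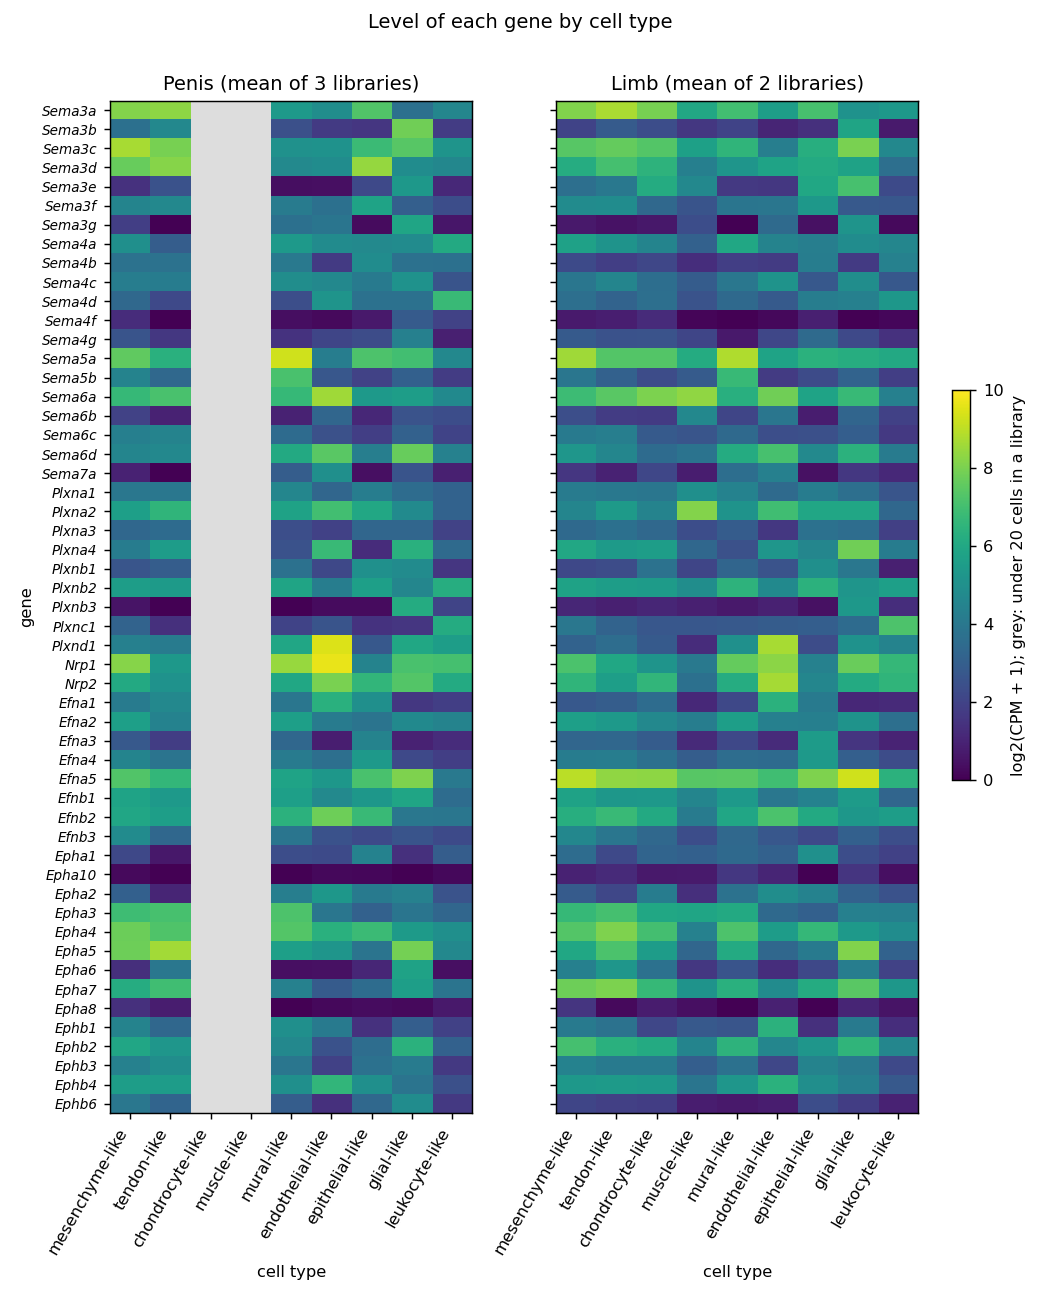
Level of each of the 53 members, as log2(CPM + 1) of the mean over 3 penis libraries (left) and 2 limb libraries (right), by cell type (columns). Colour runs from 0 to 10, and grey marks types with under 20 cells in a library. Rows are genes in family order, and colours are compared within a row, as in *Plxnd1*, brightest in endothelial-like cells of both tissues.

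Endothelial-like cells held the largest number of members higher than in mesenchyme-like cells among the 9 types. Of 52 members tested over 5 libraries, 36 passed, 13 higher and 23 lower, 69.2%, against 24.8% of the 17405 genes tested, 9.80% higher and 15.0% lower. The members' median log2 fold-change was -0.997 against -0.05 over all genes. Among ligands higher in these cells, *Sema7a*, a lipid-anchored semaphorin, stood at 36.1, 28.5 and 27.5 CPM in the 3 penis libraries and 20.7 and 17.7 CPM in forelimb and hindlimb against 0.875 to 2.37 CPM in mesenchyme-like cells (log2 fold-change 4.40 ± 0.38, SE, adjusted p = 9.78e-05). *Efna1*, an ephrin known from vessels, stood at 91.8, 77.7 and 71.8 CPM in the 3 penis libraries and 84.2 and 82.9 CPM in forelimb and hindlimb (log2 fold-change 2.97 ± 0.34, SE, adjusted p = 3.69e-04). *Efnb2*, known as the arterial ephrin, stood at 231, 196 and 229 CPM in the 3 penis libraries and 145 and 141 CPM in forelimb and hindlimb (log2 fold-change 1.58 ± 0.20, SE, adjusted p = 5.20e-04). Its venous receptor *Ephb4* stood at 95.6, 89.6 and 101 CPM in the 3 penis libraries and 75.0 and 88.4 CPM in forelimb and hindlimb (log2 fold-change 1.12 ± 0.06, SE, adjusted p = 9.62e-06). Penis and limb overlapped for *Efna1*, and all penis values lay above both limb values for *Sema7a*, *Efnb2* and *Ephb4*.

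The neuropilins, which also bind VEGF, were both higher in endothelial-like cells, *Nrp1* at 822, 774 and 858 CPM in the 3 penis libraries and 331 and 282 CPM in forelimb and hindlimb (log2 fold-change 1.42 ± 0.08, SE, adjusted p = 1.87e-05) and *Nrp2* at 237, 234 and 292 CPM in the 3 penis libraries and 365 and 435 CPM in forelimb and hindlimb (log2 fold-change 2.08 ± 0.06, SE, adjusted p = 1.63e-06). The limb values of *Nrp2* lay above its penis values, but the difference between tissues was within the fold limit and did not pass (-0.70), whereas that of *Nrp1* passed. The other members higher were *Sema3g* (3.08), *Sema6d* (2.63), *Epha2* (2.38), *Plxna2* (1.83), *Sema6b* (1.72) and *Sema6a* (1.59), with log2 fold-changes in parentheses here and below. *Sema3e*, the *Plxnd1* ligand, was at most 2.40 CPM in endothelial-like cells and below its mesenchyme-like level (log2 fold-change -2.41 ± 0.40, SE, adjusted p = 0.00204). Most Eph receptors were lower, 8 of the 13 tested, against 2 higher. The lower Eph receptors included *Epha7* (-3.21), *Epha6* (-3.13), *Epha3* (-3.13), *Ephb2* (-3.02), *Ephb6* (-2.86), *Ephb3* (-2.70) and *Epha5* (-2.59). Lower ligands were *Sema3c* (-3.47), *Sema5a* (-3.08), *Sema3a* (-2.96), *Efna3* (-2.78), *Efnb3* (-2.30), *Sema3b* (-2.14), *Sema5b* (-2.07), *Efna5* (-1.97) and *Sema6c* (-1.93), and the other 6 lower members ranged from -1.83 to -1.19. The calls lost without 1 library were *Sema3e* without the hindlimb (-2.21) and *Sema4b* without penis 1 (-1.49), penis 2 (-1.73) and penis 3 (-1.68). Other settings that ended calls did so for *Sema4b* (-1.76) with 1 fewer marker required, *Sema6b* (1.61) with thinned cells, and *Sema3e* (-2.53), *Sema3b* (-2.12), *Epha6* (-3.47) and *Efna5* (-1.97) without the library as a block (a term for each library in the fit).

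Epithelial-like cells had another set. Of 52 members tested, 25 passed, 9 higher and 16 lower, 48.1%, against 23.0% of the 17290 genes tested, 8.66% higher and 14.3% lower, with a median log2 fold-change of -0.58 against -0.08 over all genes. Besides *Plxnb1*, the receptors *Epha1* and *Epha2*, known from epithelia, were higher. *Epha1* stood at 18.4, 19.4 and 24.2 CPM in the 3 penis libraries and 28.9 and 34.4 CPM in forelimb and hindlimb against 3.36 to 11.0 CPM in mesenchyme-like cells (log2 fold-change 2.39 ± 0.24, SE, adjusted p = 1.59e-04), and *Epha2* at 15.7, 13.97 and 20.1 CPM in the 3 penis libraries and 21.9 and 19.1 CPM in forelimb and hindlimb (log2 fold-change 1.56 ± 0.16, SE, adjusted p = 1.48e-04). A-type ephrins were higher as well, *Efna3* (2.22), *Efna1* (1.29) and *Efna4* (1.23). *Efna3* stood at 21.8, 22.5 and 19.7 CPM in the 3 penis libraries and 45.5 and 41.3 CPM in forelimb and hindlimb, with the limb values above the penis values. Among semaphorins, *Sema3e* (1.92), *Sema4b* (1.71) and *Sema3f* (1.23) were higher. The lower members were led by receptors, *Epha3* (-3.69), *Ephb1* (-3.32), *Nrp1* (-3.25), *Epha5* (-3.22), *Plxna4* (-2.22), *Epha7* (-2.11), *Ephb2* (-1.98), *Plxnc1* (-1.49) and *Plxnd1* (-1.34), followed by the ligands *Efnb3* (-2.58), *Sema5b* (-2.35), *Sema6c* (-2.35), *Sema3b* (-2.04), *Efna2* (-1.49), *Sema3c* (-1.43) and *Sema6a* (-1.05). Leaving out 1 library at a time ended the calls of *Sema3e* without penis 1 (1.84) and the hindlimb (1.96), *Plxna4* without penis 2 (-2.01) and penis 3 (-2.16), *Sema3b* without penis 1 (-1.61), penis 2 (-2.18) and penis 3 (-1.95), *Plxnc1* without penis 1 (-1.36) and penis 2 (-1.54) and *Sema6a* without penis 3 (-0.95). Calls of *Sema6a* (-0.91) with all deposited barcodes, *Efna1* (1.27), *Efna4* (0.99), *Epha2* (1.08), *Plxnd1* (-1.64), *Sema4b* (1.15), *Sema3b* (-1.70) and *Plxnc1* (-1.20) with thinned cells, and *Efna1* (1.27), *Epha7* (-1.86), *Sema3e* (2.29), *Plxna4* (-1.94), *Plxnd1* (-1.29), *Sema3b* (-1.91) and *Plxnc1* (-1.47) without the library as a block were lost as well.

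Leukocyte-like cells had 3 members higher and 34 lower of 52 tested, 71.2%, against 34.8% of the 18247 genes tested, 14.8% higher and 19.9% lower. The median log2 fold-change was -1.82 against -0.12 over all genes. *Sema4d*, the ligand of *Plxnb1* that is also known as CD100 on immune cells, stood at 118, 94.8 and 116 CPM in the 3 penis libraries and 37.4 and 38.9 CPM in forelimb and hindlimb against 9.29 to 11.5 CPM in mesenchyme-like cells (log2 fold-change 3.06 ± 0.36, SE, adjusted p = 3.00e-04). All 3 penis values were above both limb values. *Plxnd1* was the third member higher (1.59). All 8 ephrins and 10 of the 13 Eph receptors tested were lower. The receptors were *Ephb1* (-3.13), *Epha3* (-2.90), *Epha5* (-2.87), *Ephb4* (-2.78), *Ephb3* (-2.59), *Epha6* (-2.52), *Ephb2* (-2.51), *Epha4* (-2.46), *Epha7* (-2.25) and *Ephb6* (-2.08). Of the ephrins, *Efna5* (-2.72), *Efna3* (-2.42), *Efnb3* (-2.40), *Efna4* (-2.29), *Efnb1* (-2.25) and *Efna1* (-2.13) were among the 25 largest differences. Lower semaphorins of that size were *Sema3a* (-2.998), *Sema3c* (-2.99), *Sema3d* (-2.79), *Sema6c* (-2.58), *Sema5a* (-2.54), *Sema5b* (-2.46) and *Sema3f* (-2.09). The other 11 lower members ranged from -2.01 to -1.04. With 1 library left out, calls were lost for *Plxna2* without penis 3 (-1.71), *Plxna4* without penis 2 (-1.13), penis 3 (-1.08), the forelimb (-0.92) and the hindlimb (-0.86), *Ephb6* without penis 3 (-1.999) and *Plxna1* without penis 2 (-1.01), the forelimb (-0.95) and the hindlimb (-0.91), and further *Efnb2* without penis 1 (-1.03), penis 2 (-1.04) and penis 3 (-1.09), *Plxnb1* without the forelimb (-1.30) and the hindlimb (-1.51), *Sema4g* without penis 2 (-1.91), penis 3 (-1.87), the forelimb (-1.95) and the hindlimb (-2.10) and *Plxna3* without penis 2 (-1.40), penis 3 (-1.38), the forelimb (-1.52) and the hindlimb (-1.49). Under other settings the calls lost were *Plxna4* (-0.89) and *Plxna1* (-0.96) with all deposited barcodes, *Plxna3* (-2.01) with cells reaching the mesenchyme minimum left out, *Sema4c* (-1.18), *Ephb6* (-2.10), *Plxna1* (-1.36), *Sema4g* (-1.60) and *Plxna3* (-1.83) with thinned cells, and *Plxna4* (-1.15), *Efnb2* (-0.96), *Sema3b* (-2.28) and *Epha6* (-2.02) without the library as a block.

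Glial-like cells, which carried markers of Schwann cells and their precursors, had 8 members higher and 12 lower of 52 tested, 38.5%, against 14.3% of the 17239 genes tested, 5.54% higher and 8.74% lower (median -0.35 against -0.10). The higher members were 4 plexins and 4 semaphorins. After *Plxnb3* they were *Plxna4* at 68.6, 86.9 and 86.1 CPM in the 3 penis libraries and 218 and 232 CPM in forelimb and hindlimb (log2 fold-change 2.06 ± 0.13, SE, adjusted p = 4.93e-05), *Plxnb1* (2.25) and *Plxnd1* (1.82). The semaphorins were the class 3 members *Sema3g*, *Sema3b* and *Sema3e*, and *Sema6d* (2.46). *Sema3g* stood at 53.4, 54.6 and 63.7 CPM in the 3 penis libraries and 39.6 and 30.3 CPM in forelimb and hindlimb against 0.575 to 2.96 CPM in mesenchyme-like cells (log2 fold-change 4.98 ± 0.30, SE, adjusted p = 4.30e-05). *Sema3b* stood at 243, 227 and 216 CPM in the 3 penis libraries and 51.9 and 59.9 CPM in forelimb and hindlimb (log2 fold-change 4.25 ± 0.11, SE, adjusted p = 9.08e-07), and *Sema3e* at 35.4, 41.2 and 42.7 CPM in the 3 penis libraries and 160.4 and 111 CPM in forelimb and hindlimb (log2 fold-change 4.12 ± 0.28, SE, adjusted p = 6.53e-05). *Sema3b* was higher in penis and *Sema3e* in the limbs, without overlap. Ephrins and Eph receptors passed only as lower members, *Epha3* (-2.89), *Efna1* (-2.85), *Efna3* (-2.47), *Epha4* (-2.18), *Efnb3* (-2.14), *Efna4* (-2.02), *Efnb2* (-1.58) and *Ephb4* (-1.47), beside the semaphorins *Sema3a* (-3.89), *Sema3f* (-1.80), *Sema6c* (-1.29) and *Sema5b* (-1.25). When 1 library was left out, calls were lost for *Sema6d* without penis 1 (2.32), penis 2 (2.20) and penis 3 (2.21), *Efna4* without penis 3 (-1.95), *Sema6c* without penis 2 (-1.42) and penis 3 (-1.36) and *Sema5b* without penis 1 (-1.15), penis 2 (-1.08) and penis 3 (-1.32). Other settings ended those of *Sema6c* (-1.71) with cells reaching the mesenchyme minimum left out, *Efna1* (-3.41), *Efna3*, *Efna4* (-2.41), *Sema6c* (-2.33), *Ephb4* (-1.42), *Plxnb1* (1.70), *Efnb3* (-2.31) and *Sema5b* (-1.56) with thinned cells, and *Plxna4* (1.94) without the library as a block.

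**Figure D3:**
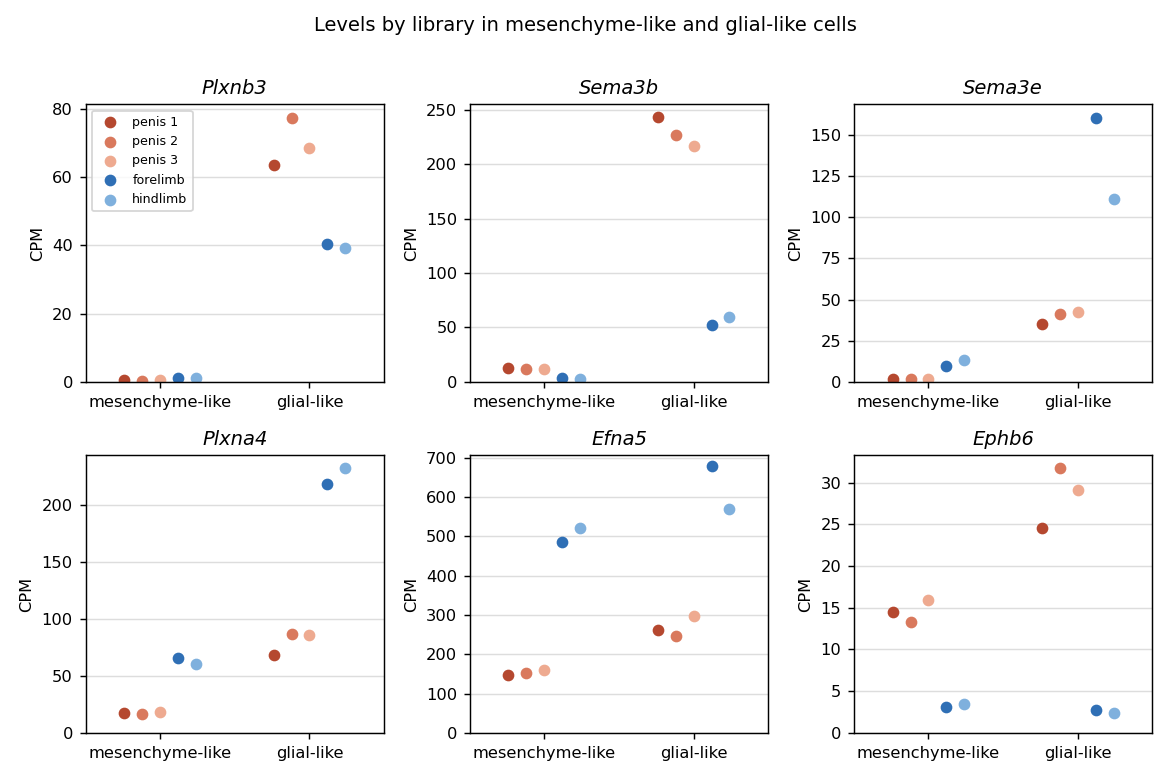
Level in CPM (vertical axes, linear, from 0, each with its own range) of 6 members in mesenchyme-like and glial-like cells, with 1 point per library. *Plxnb3*, *Sema3b* and *Sema3e* are above their mesenchyme-like level in glial-like cells of every library, and *Ephb6* is above it in the 3 penis libraries only.

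Mural-like cells, the pericytes and smooth muscle around vessels, had 7 members higher and 8 lower of 51 tested, 29.4%, against 7.58% of the 17014 genes tested, 3.59% higher and 3.99% lower (median -0.37 against -0.10). Of these cells, 67.9% to 85.3% also reached the minimum of mesenchyme markers. *Sema5b*, a transmembrane class 5 semaphorin, led at 114, 137 and 167 CPM in the 3 penis libraries and 81.4 and 129.8 CPM in forelimb and hindlimb against 12.4 to 21.5 CPM in mesenchyme-like cells (log2 fold-change 2.76 ± 0.11, SE, adjusted p = 1.54e-08). Its relative *Sema5a* stood at 579, 635 and 648 CPM in the 3 penis libraries and 371 and 524 CPM in forelimb and hindlimb (log2 fold-change 1.11 ± 0.23, SE, adjusted p = 0.00513). The other higher members were *Sema7a* (2.64), *Plxnd1* (1.70), *Sema6d* (1.31), *Plxnb1* (1.22) and *Epha2* (1.22). The 10 endothelial markers summed to 279 to 361 CPM in penis and 483 and 567 CPM in limb mural-like cells, with at most 2 at 0, against 84.6 to 92.2 CPM and 161 and 176 CPM in mesenchyme-like cells. *Sema7a*, *Plxnd1*, *Sema6d* and *Epha2* were also higher in endothelial-like cells, and the part of endothelial transcripts in their calls was not tested. The 10 glial markers summed to 318 and 289 CPM in mural-like cells of penis 1 and penis 2. In their mesenchyme-like cells they summed to 76.0 and 79.1 CPM. *Plxnb1*, *Plxnd1* and *Sema6d* were also higher in glial-like cells, and the part of glial transcripts was not tested. Lower were *Plxna4* (-2.78), *Sema3c* (-2.50), *Sema3d* (-2.35), *Sema3a* (-2.11), *Epha7* (-1.67), *Efna5* (-1.53), *Plxnc1* (-1.39) and *Efnb3* (-1.12). The calls lost without 1 library were *Epha2* without penis 1 (1.06) and penis 2 (1.19), *Plxnb1* without penis 1 (1.18), penis 2 (1.35), penis 3 (1.16) and the forelimb (1.16), *Plxnc1* without penis 1 (-1.24), penis 2 (-1.43), penis 3 (-1.47) and the hindlimb (-1.29) and *Sema5a* without penis 1 (0.98), penis 2 (0.95) and penis 3 (0.93). Under the other settings, calls were lost for *Efnb3* (-0.94) with 1 more marker required, *Epha2* (0.97), *Sema3d* (-1.71), *Sema3a* (-1.70), *Sema3c* (-1.40), *Plxna4* (-1.26), *Plxnb1* (1.02), *Plxnc1* (-0.92), *Efnb3* (-0.67) and *Sema5a* (0.98) with 1 fewer marker required, *Plxna4* (-1.08) with all deposited barcodes, *Epha2* (-0.32), *Plxna4*, *Plxnd1* (1.84), *Plxnb1* (1.31), *Plxnc1* (-0.38) and *Efnb3* with thinned cells, and *Epha7* (-1.61), *Sema3a* (-1.95), *Plxnd1* (1.68), *Plxnb1* (1.24), *Plxnc1* (-1.42), *Sema5a* (1.04) and *Efna5* (-1.55) without the library as a block.

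The skeletal types were compared with mesenchyme-like cells where their cell numbers allowed. In muscle-like cells of the 2 limb libraries, 6 members were higher and 29 lower of 53 tested, 66.0%, against 28.0% of the 19780 genes tested, 10.5% higher and 17.6% lower (median -1.11 against -0.13). Besides *Plxna2*, the higher members were *Sema3g* (3.20), *Sema6b* (2.90), *Sema6a* (1.90), *Sema3e* (1.45) and *Plxna1* (1.24). *Sema6a*, which binds plexin-A receptors, stood at 292 and 351 CPM in muscle-like against 103 and 124 CPM in mesenchyme-like cells of the forelimb and hindlimb. Both neuropilins were lower, *Nrp1* (-2.82) and *Nrp2* (-2.59), and so were 11 of 14 Eph receptors and 6 of 8 ephrins. The largest of these were *Epha6* (-2.84), *Epha4* (-2.62), *Efna3* (-2.39), *Epha5* (-2.38), *Epha7* (-2.29), *Ephb2* (-2.18), *Epha8* (-2.11), *Efnb3* (-2.09), *Efna1* (-1.80), *Efnb2* (-1.76), *Ephb6* (-1.73) and *Epha2* (-1.66). The semaphorins *Sema4a* (-2.35), *Sema3f* (-2.02), *Sema5a* (-2.01), *Sema3a* (-1.72) and *Sema3d* (-1.52) and the plexins *Plxna4* (-2.38) and *Plxnd1* (-2.02) were lower too, and the other 8 lower members ranged from -1.34 to -1.02. The calls lost under other settings were *Ephb1* (-0.90) with 1 more marker required, *Efna2* (-0.99) with 1 fewer marker required, *Sema6d* (-1.004), *Epha8* (-2.04), *Ephb1* (-0.96) and *Efna2* (-0.99) in DESeq2, *Ephb1* (-0.96) and *Efna2* (-0.98) with RLE in place of TMM scaling, *Ephb1* (-0.99) with all deposited barcodes, *Sema6d* (-0.27), *Efna1* (-2.09), *Sema6c* (-0.72), *Epha8*, *Epha2* (-2.75), *Ephb6* (-2.12), *Plxnd1* (-1.79) and *Ephb1* (0.51) with thinned cells, and *Sema6d* (-1.12) without the library as a block. With 2 libraries, none could be left out.

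In chondrocyte-like cells of the limbs, 4 members were higher and 11 lower of 53 tested, 28.3%, against 12.0% of the 19777 genes tested, 4.43% higher and 7.56% lower (median -0.29 against -0.03). *Sema3e* led, at 58.5 and 80.3 CPM in the forelimb and hindlimb against 9.94 and 13.3 CPM in mesenchyme-like cells (log2 fold-change 2.63 ± 0.07, SE, adjusted p = 2.64e-08). The others higher were *Plxnb1* (1.91), *Epha2* (1.48) and *Sema6a* (1.25). Lower were *Ephb1* (-2.30), *Nrp1* (-1.95), *Sema5b* (-1.81), *Sema6d* (-1.75), *Sema3f* (-1.44), *Sema6c* (-1.37), *Plxnc1* (-1.35), *Efnb3* (-1.26), *Sema4a* (-1.21), *Sema5a* (-1.19) and *Epha7* (-1.07). The penis libraries held 14 to 18 chondrocyte-like cells each, under the limit of 20, and were not tested. The calls of *Sema6d* (-0.94), *Sema6c* (-0.77), *Epha2* (0.58), *Ephb1* (-1.47) and *Sema6a* (0.89) with 1 fewer marker required, and *Sema6d* (-1.30), *Sema4a* (-0.78), *Sema6c* (-1.07), *Epha2* (0.98) and *Sema6a* (0.61) with all deposited barcodes were lost. In tendon-like cells of the 5 libraries, 4 of 51 members passed, 7.84%, against 2.50% of the 16849 genes tested, 0.932% higher and 1.57% lower (median -0.22 against -0.07). *Sema3b* and *Epha5* were higher (1.12 and 1.07), *Nrp1* and *Sema5a* lower (-2.02 and -1.18), and 2 passed without penis 3. Leaving out 1 library at a time ended the calls of *Nrp1* without penis 3 (-1.96) and *Sema3b* without penis 1 (1.14), penis 2 (1.01), penis 3 (1.18) and the forelimb (1.09). Settings other than these ended the calls of *Sema3b* (1.21) with 1 more marker required, *Sema3b* (0.61) and *Sema5a* (-0.92) with 1 fewer marker required, *Epha5* (0.77) and *Sema3b* (2.79) with thinned cells, and *Epha5* (0.997), *Sema3b* (1.03) and *Sema5a* (-1.16) without the library as a block.

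In bone-forming-like cells of penis 1, penis 2 and the forelimb, 9 of 51 members passed, 17.6%, against 4.58% of the 16984 genes tested, 1.64% higher and 2.94% lower (median -0.54 against -0.22). *Nrp2* led, at 327 and 215 CPM in penis 1 and 2 and 394 CPM in the forelimb, against 62.3 to 84.4 CPM in their mesenchyme-like cells (log2 fold-change 2.06 ± 0.23, SE, adjusted p = 1.21e-17). The others were *Sema6d* (1.40), *Plxna2* (1.24) and *Efna5* (1.00), higher, and *Sema3c* (-2.22), *Epha7* (-1.65), *Epha5* (-1.15), *Sema3a* (-1.11) and *Nrp1* (-1.11), lower. Without penis 1, 3 members passed, and without penis 2, 5, and *Nrp2* and *Sema3c* were called in each. With 1 library left out, calls were lost for *Plxna2* without penis 1 (0.91) and penis 2 (1.04), *Sema6d* without penis 1 (0.90) and penis 2 (1.03), *Epha7* without penis 1 (-1.22) and *Sema3a* without penis 2 (-0.84), and further *Epha5* without penis 1 (-0.95) and the forelimb (-0.97), *Nrp1* without penis 1 (-0.94) and penis 2 (-1.01) and *Efna5* without penis 1 (0.70). DESeq2 called 3 members, 2 of them among the 9, and 2 of the 9 were called with 1 fewer marker required, while without the library as a block 0 passed in edgeR's quasi-likelihood test, with 18 of 51 at an unadjusted p under 0.05. The calls of *Plxna2* (0.97), *Sema6d* (1.00), *Sema3a* (-0.15), *Epha5* (-0.64) and *Efna5* (0.95) with all deposited barcodes, and *Efna5* (0.99) without the low count filter were lost too.

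Between tissues, mesenchyme-like cells, the most numerous type, had more *Sema3b*, *Sema3c* and *Sema3d* in penis and more *Efna5* and its receptor *Epha7* in limb. *Sema3g*, at the low levels given above, and *Nrp1*, close to the fold limit, were also higher in penis. All 53 members were tested, and 23 passed, 12 higher and 11 lower in penis, 43.4%, against 25.3% of the 20490 genes tested, 12.4% higher and 12.8% lower. The members' median log2 fold-change was -0.08 against 0.00 over all genes.

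**Figure D4:**
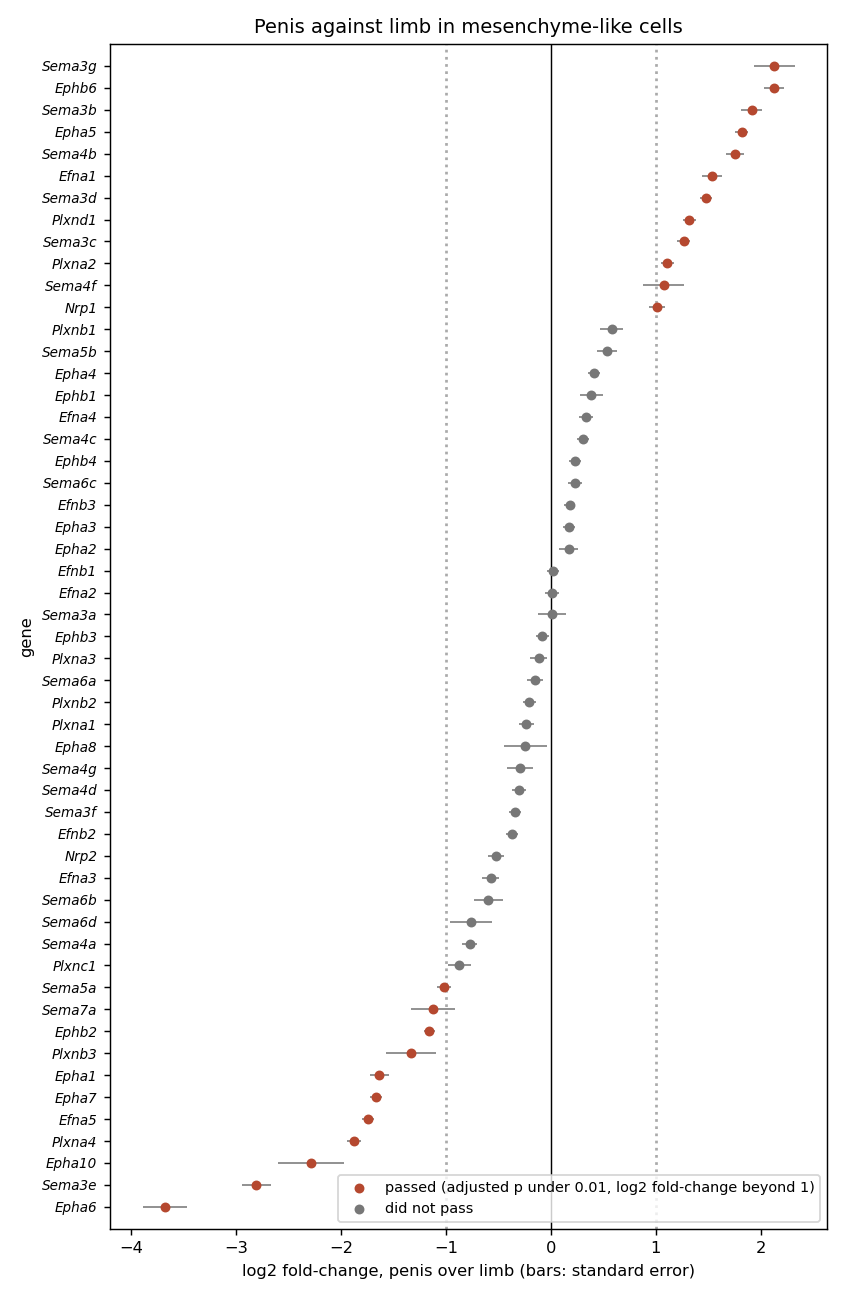
Log2 fold-change of penis over limb in mesenchyme-like cells (horizontal axis, bars give the standard error) for the 53 members, in order of size. Red points passed an adjusted p under 0.01 and a log2 fold-change beyond 1, marked by dotted lines. The 12 higher in penis run from *Nrp1* at 1.01 to *Sema3g* at 2.13, and the 11 lower from *Sema5a* at -1.02 to *Epha6* at -3.68.

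Among secreted ligands, *Sema3c*, known for guiding neural crest cells in the outflow tract, stood at 414, 409 and 425 CPM in the 3 penis libraries and 178 and 162 CPM in forelimb and hindlimb (log2 fold-change 1.27 ± 0.07, SE, adjusted p = 3.40e-07). *Sema3d* stood at 198, 202 and 210.5 CPM in the 3 penis libraries and 69.2 and 74.4 CPM in forelimb and hindlimb (log2 fold-change 1.48 ± 0.06, SE, adjusted p = 6.40e-08). Every penis value was above both limb values for each. The ligands *Sema3g* (2.13), *Sema3b* (1.92), *Sema4b* (1.76), *Efna1* (1.54) and *Sema4f* (1.07) were also higher in penis. *Sema3e* ran the other way, at 1.63, 1.77 and 1.62 CPM in the 3 penis libraries and 9.94 and 13.3 CPM in forelimb and hindlimb (log2 fold-change -2.81 ± 0.14, SE, adjusted p = 2.57e-07), and *Sema5a* and *Sema7a* were lower in penis as well (-1.02 and -1.12). The sum of the endothelial markers in mesenchyme-like cells, given above, was also lower in penis. *Sema7a* was higher in endothelial-like cells, and the part of endothelial transcripts in its call was not tested. *Sema3a*, the first described axon repellent of the class, did not differ beyond its spread, at 272, 262 and 306 CPM in the 3 penis libraries and 219 and 328 CPM in forelimb and hindlimb (log2 fold-change 0.01 ± 0.14, SE, adjusted p = 0.95), and *Sema3f* was at 21.2, 20.9 and 22.9 CPM in the 3 penis libraries and 26.0 and 28.1 CPM in forelimb and hindlimb (log2 fold-change -0.34 ± 0.06, SE, adjusted p = 6.29e-04).

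Of the receptors for these ligands, *Nrp1* stood at 295, 269.8 and 305 CPM in the 3 penis libraries and 152 and 131 CPM in forelimb and hindlimb (log2 fold-change 1.01 ± 0.08, SE, adjusted p = 4.67e-06) and *Nrp2* at 65.8, 62.3 and 69.8 CPM in the 3 penis libraries and 84.4 and 103 CPM in forelimb and hindlimb (log2 fold-change -0.53 ± 0.08, SE, adjusted p = 2.48e-04). The plexin-A genes split: *Plxna2* was higher in penis (1.11) and *Plxna4* lower, at 17.3, 16.4 and 18.7 CPM in the 3 penis libraries and 65.7 and 60.5 CPM in forelimb and hindlimb (log2 fold-change -1.88 ± 0.07, SE, adjusted p = 3.66e-08). *Plxna1* and *Plxna3* had log2 fold-changes of -0.23 and -0.12 and did not pass. *Plxnd1* was higher in penis (1.32) and *Plxnb3*, at 0.318 to 1.17 CPM, lower (-1.33).

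*Efna5*, the ephrin-A5 ligand, stood at 146, 152 and 160.5 CPM in the 3 penis libraries and 485 and 522 CPM in forelimb and hindlimb in mesenchyme-like cells (log2 fold-change -1.74 ± 0.06, SE, adjusted p = 3.15e-08), and both limb values were above all penis values. Among its receptors, *Epha7* stood at 71.7, 69.5 and 72.8 CPM in the 3 penis libraries and 213 and 233 CPM in forelimb and hindlimb (log2 fold-change -1.67 ± 0.05, SE, adjusted p = 2.43e-08). *Epha5* ran the other way, at 215, 213 and 233 CPM in the 3 penis libraries and 62.9 and 59.9 CPM in forelimb and hindlimb (log2 fold-change 1.82 ± 0.06, SE, adjusted p = 2.85e-08). *Epha3* and *Epha4* did not pass, at 0.17 and 0.41. The other Eph receptors that passed were *Ephb6* (2.13), which lacks kinase activity, higher in penis, and *Epha6* (-3.68), *Epha10* (-2.28), *Epha1* (-1.63) and *Ephb2* (-1.16), lower. *Epha6* and *Epha10* were at 14.8 to 24.4 and 0.851 to 1.08 CPM in the limbs. *Efnb1* stood at 57.3, 52.8 and 54.8 CPM in the 3 penis libraries and 51.6 and 55.1 CPM in forelimb and hindlimb, with a log2 fold-change of 0.02, and its receptors *Ephb1* and *Ephb3* had 0.39 and -0.08, none of them passing. *Efnb2* and *Ephb4* had -0.37 and 0.23. When 1 library was left out, calls were lost for *Nrp1* without penis 3 (1.00) and the hindlimb (0.89), *Sema7a* without the forelimb (-0.78) and *Sema5a* without the hindlimb (-0.92). Cells with at least 2000 UMIs were also thinned to that depth in 1 random draw and gated anew. There *Plxna2* (0.99), *Nrp1* (0.68) and *Sema7a* (-0.64) did not pass, and 3 of the 23, *Epha10*, *Sema4f* and *Plxnb3*, were no longer tested. The calls of *Nrp1* (0.96) with 1 more marker required, *Sema5a* (-0.97) with 1 fewer marker required, and *Nrp1* (0.99) with all deposited barcodes were lost too.

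Endothelial-like cells of penis had more *Plxna4*, *Sema4d*, *Nrp1* and *Epha5* and less *Ephb1*, *Ephb2*, *Epha7*, *Efna5*, *Sema5a*, *Epha1* and *Sema3d* than those of limb. Of 44 members tested, 11 passed, 4 higher and 7 lower, against 14.1% of the 13410 genes tested, 7.43% higher and 6.64% lower (median -0.03 against 0.00). *Plxna4*, a plexin-A that pairs with neuropilins, stood at 98.7, 94.0 and 137 CPM in the 3 penis libraries and 43.2 and 31.4 CPM in forelimb and hindlimb (log2 fold-change 1.51 ± 0.16, SE, adjusted p = 9.11e-07). *Sema4d* stood at 29.5, 33.3 and 41.9 CPM in the 3 penis libraries and 5.40 and 6.69 CPM in forelimb and hindlimb (log2 fold-change 2.47 ± 0.22, SE, adjusted p = 8.06e-08), and *Nrp1* had a log2 fold-change of 1.37. *Ephb1*, a receptor of B-type ephrins, ran the other way, at 16.6, 12.0 and 19.2 CPM in the 3 penis libraries and 78.6 and 92.5 CPM in forelimb and hindlimb (log2 fold-change -2.48 ± 0.15, SE, adjusted p = 7.42e-10). The penis and limb values of these members did not overlap. *Efnb2* had 0.57 and *Ephb4* 0.18, and neither passed.

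The other 7 that passed were *Epha5* (1.97), *Ephb2* (-2.32), *Epha7* (-2.15), *Efna5* (-1.74), *Sema5a* (-1.66), *Epha1* (-1.07) and *Sema3d* (-1.04). Several of them were at a low share of their mesenchyme-like level. *Epha7* in endothelial-like cells was at 8.34, 8.96 and 9.37% of it in penis and at 14.9% and 9.88% in forelimb and hindlimb. For *Sema5a* these shares were 9.95, 8.66 and 9.66%, 18.9% and 10.8%. In 5 of the 11, *Epha7*, *Ephb2*, *Epha5*, *Sema5a* and *Efna5*, the level in the tissue where it was higher was no larger a share of its mesenchyme-like level than that of the highest mesenchyme marker. Set beside the median marker, this held only for *Epha7*. In the tissue where it was higher, *Epha5* was at 15.0, 20.3 and 14.1%, *Ephb2* at 20.4% and 15.2% and *Efna5* at 29.5% and 19.3% of the mesenchyme-like level. With cells that reached the minimum of mesenchyme markers left out, an alternative chosen after the data were seen, *Epha7* (-0.94) and *Sema5a* (-0.28) no longer passed and *Ephb2* was no longer tested. The calls lost without 1 library were *Sema3d* without penis 1 (-0.79) and the hindlimb (-0.98) and *Epha1* without penis 1 (-0.98), penis 2 (-1.11), penis 3 (-1.12), the forelimb (-1.17) and the hindlimb (-0.94). DESeq2 did not call *Epha1*, and calls were lost for *Sema3d* (-0.99) with 1 more marker required, *Sema3d* (-0.47) with all deposited barcodes, and *Sema3d* (-0.996) and *Epha1* (-1.02) without the low count filter. With cells thinned to 2000 UMIs 7 members passed, 6 of them among the 11, *Sema3d* (0.33) and *Nrp1* (0.96) did not, and 3 of the 11 were no longer tested.

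The difference between the tissue effects of endothelial-like and mesenchyme-like cells was itself tested, as an interaction of type and tissue in a fit with a term for each library. Of 53 members, 11 passed, 20.8%, against 7.12% of the 19400 genes tested, 3.88% higher and 3.24% lower (median -0.14 against -0.01). The penis over limb ratio was larger in endothelial-like cells for 5 and larger in mesenchyme-like cells for 6. The sign does not say which type differed more between tissues. *Ephb1*, with the larger ratio in mesenchyme-like cells, passed between tissues in endothelial-like cells and not in mesenchyme-like cells. *Plxna4* was higher in penis in endothelial-like and lower in mesenchyme-like cells, a difference of 3.42 ± 0.14 (SE, adjusted p = 5.13e-10). The others with the larger ratio in endothelial-like cells were *Sema4d* (2.81), *Sema7a* (1.78), *Sema4a* (1.10) and *Sema6d* (1.06). Those with the larger ratio in mesenchyme-like cells were *Ephb1* (-2.84), *Sema3d* (-2.50), *Sema3g* (-1.64), *Efna1* (-1.60), *Ephb2* (-1.14) and *Plxna2* (-1.05). *Sema3d* was higher in penis mesenchyme-like cells while its endothelial-like values, 17.4, 32.1 and 33.9 CPM in penis, were below the 52.8 and 57.6 CPM of the limbs. Leaving out 1 library at a time ended the calls of *Plxna2* without penis 1 (-0.99) and the hindlimb (-0.81), *Sema6d* without penis 1 (0.98), penis 2 (1.01) and the forelimb (0.63), *Sema4a* without penis 2 (0.93) and penis 3 (1.00), *Ephb2* without the forelimb (-0.86) and *Sema3g* without penis 2 (-1.34), the forelimb (-1.61) and the hindlimb (-1.55). With cells thinned to 2000 UMIs, *Plxna2* (-0.90), *Sema6d* (0.83), *Ephb2* (0.98), *Sema3d* (-0.86) and *Sema7a* (0.82) did not pass, and other settings ended the calls of *Plxna2* (-0.83) with 1 fewer marker required, *Sema6d* (0.97) and *Ephb2* (-0.60) with all deposited barcodes, and *Sema6d* (0.97) and *Ephb2* (-0.93) with cells reaching the mesenchyme minimum left out.

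**Figure D5:**
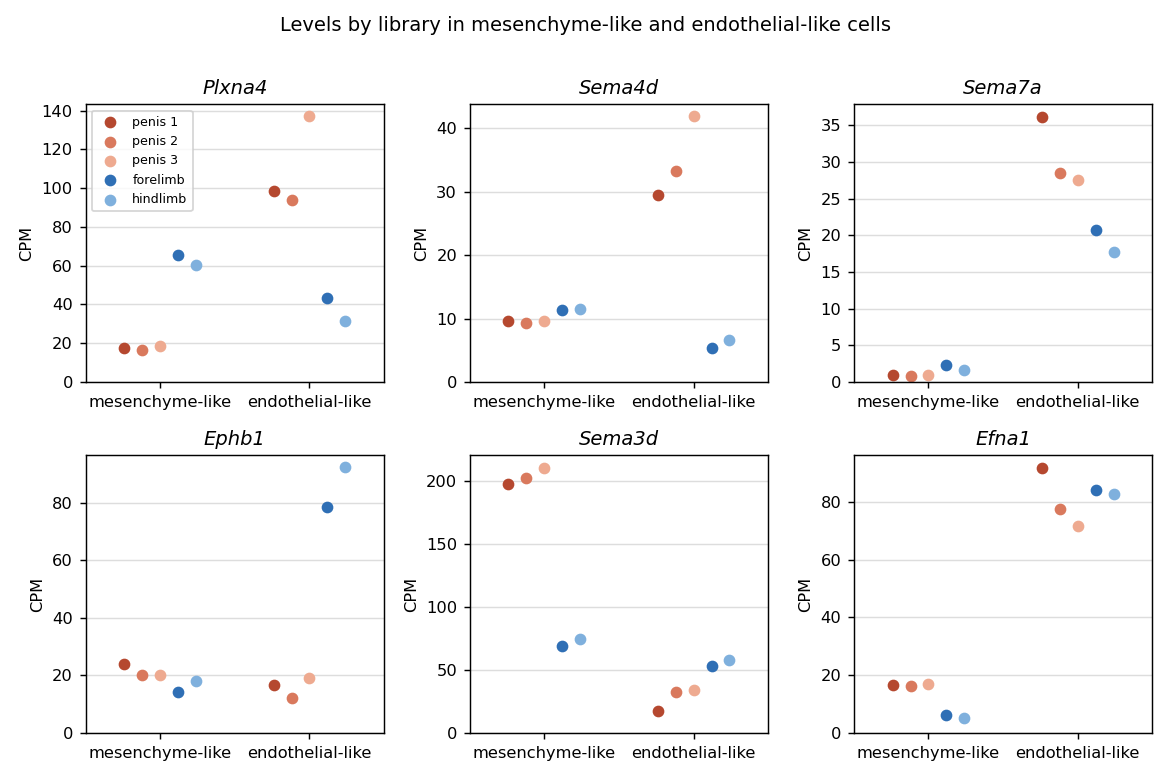
Level in CPM (vertical axes, linear, from 0, each with its own range) of 6 members in mesenchyme-like and endothelial-like cells, with 1 point per library (reds, penis; blues, forelimb and hindlimb). *Plxna4* is at 94.0 to 137 CPM in penis and 31.4 to 43.2 CPM in limb endothelial-like cells, with the tissues in the opposite order in mesenchyme-like cells, and *Ephb1* is at 78.6 and 92.5 CPM in limb endothelial-like cells and at most 24.0 CPM elsewhere in the plot.

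Epithelial-like cells of penis had more *Nrp2* and *Sema3d* and less *Sema3e*, *Plxna4* and *Epha7* than those of limb. Of 41 members tested, 8 passed, 4 higher and 4 lower, 19.5%, against 11.1% of the 12326 genes tested, 5.12% higher and 5.95% lower (median 0.10 against 0.01). *Sema3e* stood at 6.05, 3.01 and 1.64 CPM in the 3 penis libraries and 80.6 and 42.8 CPM in forelimb and hindlimb (log2 fold-change -3.96 ± 0.38, SE, adjusted p = 8.60e-06). *Plxna4* stood at 0.605, 1.10 and 2.46 CPM in the 3 penis libraries and 24.5 and 22.2 CPM in forelimb and hindlimb (log2 fold-change -4.05 ± 0.44, SE, adjusted p = 2.28e-05). *Nrp2* stood at 99.1, 81.9 and 106 CPM in the 3 penis libraries and 15.8 and 29.8 CPM in forelimb and hindlimb (log2 fold-change 2.10 ± 0.22, SE, adjusted p = 1.76e-05), and *Sema3d* at 299, 283 and 454 CPM in the 3 penis libraries and 73.6 and 64.3 CPM in forelimb and hindlimb (log2 fold-change 2.38 ± 0.20, SE, adjusted p = 3.34e-06). The tissues did not overlap for these 4. The others were *Sema4c* (1.58), *Efna1* (1.01), *Epha7* (-2.66) and *Ephb2* (-1.69). *Epha7* was at 14.7, 15.0 and 15.2% of its mesenchyme-like level in penis and at 20.1% and 42.1% in forelimb and hindlimb, and no longer passed with cells reaching the mesenchyme minimum left out (-1.26). With 1 library left out, calls were lost for *Sema4c* without penis 1 (1.54), penis 3 (1.56), the forelimb (1.69) and the hindlimb (1.47) and *Efna1* without penis 1 (0.99), penis 2 (1.02), penis 3 (1.04) and the hindlimb (0.68). The level of *Plxna4* and *Ephb2* in the limb was no larger a share of their mesenchyme-like level than that of the highest mesenchyme marker, and both still passed with those cells left out. *Efna1* (0.93) did not. DESeq2 did not call *Sema4c* and *Efna1*, and with cells thinned to 2000 UMIs 5 members passed, 2 of them among the 8, *Efna1* was at -0.44, and *Sema3e*, *Plxna4*, *Sema4c*, *Epha7* and *Ephb2* were no longer tested. With all deposited barcodes *Efna1* (0.96) was lost as well.

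Tested against mesenchyme-like cells, the tissue effect in epithelial-like cells differed for 8 of 53 members, 15.1%, against 7.39% of the 19417 genes tested, 3.11% higher and 4.28% lower (median -0.31 against 0.02). The penis over limb ratio was larger in epithelial-like cells for 5 and larger in mesenchyme-like cells for 3. *Nrp2*, higher in penis in epithelial-like cells and at -0.53 in mesenchyme-like cells, differed by 2.64. The ratio was also larger in epithelial-like cells for *Sema5a* (1.93), *Sema4a* (1.27), *Efnb2* (1.10) and *Epha1* (1.06). It was larger in mesenchyme-like cells for *Epha5* (-2.04) and *Plxna2* (-1.01). *Plxna4*, lower in penis in both types, differed by -2.23, and did not pass when cells were thinned to 2000 UMIs (-1.69). *Plxna4* passed both tests of the difference, with opposite signs. In epithelial-like cells it was at 3.49, 6.69 and 13.2% of its mesenchyme-like level in the 3 penis libraries. In forelimb and hindlimb it was at 37.3% and 36.6%. Each was no larger a share than that of the highest mesenchyme marker in that library. The part of mesenchyme transcripts in this sign was not tested. When 1 library was left out, calls were lost for *Plxna2* without penis 1 (-0.98), penis 2 (-0.99) and the hindlimb (-0.76), *Sema4a* without the forelimb (0.86), *Epha5* without the hindlimb (-0.05) and *Epha1* without penis 1 (1.13), penis 2 (1.08), penis 3 (0.97) and the forelimb (0.88). Other settings ended the calls of *Plxna2* (-0.96) and *Epha1* (1.01) with 1 more marker required, *Plxna2* (-0.72) and *Epha5* (-0.84) with 1 fewer marker required, *Epha5* (-1.67) in DESeq2, *Plxna2* (-0.74) and *Epha5* (-2.05) with all deposited barcodes, *Epha5* (0.30) with cells reaching the mesenchyme minimum left out, and *Plxna2* (-1.02), *Sema4a* (2.49), *Epha5* (-0.0018) and *Epha1* (1.01) with thinned cells.

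Leukocyte-like cells of penis had more *Sema4d*, *Sema4a* and *Plxnd1* and less *Plxnc1* than those of limb. Of 32 members tested, 10 passed, 4 higher and 6 lower, 31.2%, against 21.0% of the 12214 genes tested, 13.0% higher and 7.96% lower (median -0.09 against 0.00). *Sema4d* (log2 fold-change 1.51 ± 0.11, SE, adjusted p = 3.41e-06) and *Plxnc1* (log2 fold-change -1.10 ± 0.10, SE, adjusted p = 9.65e-06) had no overlap between tissues in the values given above. *Sema4a*, a class 4 semaphorin known from T cell priming, stood at 65.3, 61.4 and 70.6 CPM in the 3 penis libraries and 25.9 and 19.6 CPM in forelimb and hindlimb (log2 fold-change 1.51 ± 0.14, SE, adjusted p = 1.40e-05). *Plxnd1* stood at 42.8, 48.1 and 48.8 CPM in the 3 penis libraries and 21.9 and 20.9 CPM in forelimb and hindlimb (log2 fold-change 1.10 ± 0.12, SE, adjusted p = 4.22e-05). The 10 leukocyte markers summed to 7700 to 8477 CPM in penis and 5048 and 5150 CPM in limb leukocyte-like cells, and their part in the calls was not tested. The 10 endothelial markers, none at 0, summed to 237 to 257 CPM in penis and 131 and 145 CPM in limb leukocyte-like cells, and the part of endothelial transcripts in the call of *Plxnd1* was not tested. The others were *Epha5* (1.58), *Efna5* (-2.48), *Efnb2* (-1.72), *Ephb2* (-1.64), *Epha7* (-1.56) and *Sema5a* (-1.42). *Efna5* in these cells was at 12.1, 7.90 and 10.3% of its mesenchyme-like level in the penis libraries and at 19.8% and 14.03% in forelimb and hindlimb, beside 8.86% to 15.8% for the median mesenchyme marker. With cells reaching the mesenchyme minimum left out, *Ephb2* (-0.61) and *Sema5a* (-0.23) no longer passed. *Epha5*, at 5.33, 14.2 and 13.7% of its mesenchyme-like level in penis, and *Epha7*, at 16.7% and 17.3% in forelimb and hindlimb, were at no larger a share than the highest marker. With those cells left out, *Epha7* still passed (-1.28) and *Epha5* was no longer tested. The call lost without 1 library was that of *Epha5* without penis 2 (1.33) and penis 3 (1.40), and other settings ended those of *Epha5* (0.84) with 1 more marker required, and *Epha5* (1.46) and *Plxnd1* (0.98) without the low count filter. With cells thinned to 2000 UMIs 5 members passed, 4 of them among the 10, *Plxnd1* (0.71) did not, and 5 of the 10 were no longer tested.

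Glial-like cells differed most widely between tissues after mesenchyme-like cells by number of members. Of 45 members tested, 18 passed, 9 higher and 9 lower in penis, 40.0%, against 17.1% of the 11148 genes tested, 8.89% higher and 8.24% lower (median -0.10 against 0.00). The 10 glial markers summed to 14688 to 15236 CPM in penis and 3015 to 3118 CPM in limb glial-like cells. The part of this difference in the calls below was not tested. Higher in penis were the ligands *Sema4g* (2.40), *Sema4b* (2.47), *Sema3b* (2.08) and *Sema6d* (1.31) and the receptors *Ephb6* (3.47), *Epha6* (1.63), *Epha2* (1.47) and *Nrp2* (1.28). *Sema3b* (log2 fold-change 2.08 ± 0.13, SE, adjusted p = 1.56e-11) and *Ephb6* (log2 fold-change 3.47 ± 0.38, SE, adjusted p = 1.62e-07) did not overlap between tissues, *Ephb6* standing at 24.5, 31.8 and 29.2 CPM in the 3 penis libraries and 2.73 and 2.40 CPM in forelimb and hindlimb. *Sema4f* had no UMI in limb glial-like cells and a mean of 6.38 CPM in penis, at least 5.78-fold higher against a floor of 3 UMIs over both limb libraries.

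Lower in penis glial-like cells were the plexins *Plxnc1* (-2.24), *Plxna4* (-1.44) and *Plxna2* (-1.13), the semaphorins *Sema3e* (-1.74), *Sema3a* (-1.42) and *Sema6a* (-1.15), the ephrins *Efnb2* (-1.35) and *Efna5* (-1.18) and *Epha7* (-1.80). *Plxna4* (log2 fold-change -1.44 ± 0.12, SE, adjusted p = 1.73e-09) and *Sema3e* had no overlap between tissues in the values given above. *Efna5* stood at 262, 246 and 296 CPM in the 3 penis libraries and 679 and 570.2 CPM in forelimb and hindlimb (log2 fold-change -1.18 ± 0.10, SE, adjusted p = 4.76e-09) and was above its mesenchyme-like level in every library. *Epha6* was higher in penis glial-like cells, at 33.2, 63.1 and 65.1 CPM in the 3 penis libraries and 14.3 and 21.6 CPM in forelimb and hindlimb, and lower in penis mesenchyme-like cells. *Sema3a* was at 3.21, 6.26 and 3.33% of its mesenchyme-like level in penis and at 13.1% and 11.7% in forelimb and hindlimb, below the median mesenchyme marker in each library. *Efnb2* was at 45.6% and 54.9% in the limbs, no larger a share than the highest marker. With cells reaching the mesenchyme minimum left out, 16 of the 18 were called, *Efnb2* (-1.42) among them, and *Sema3a* and *Sema4f* were no longer tested. With all deposited barcodes in place of the filtered cells, *Sema3a* was at 1.22, in the opposite direction. The calls lost without 1 library were *Plxna2* without the forelimb (-0.73), *Epha2* without the forelimb (1.11) and *Sema3a* without the hindlimb (-1.21), and further *Sema4b* without the forelimb (2.37), *Plxnc1* without the forelimb (-2.24) and the hindlimb (-2.22), *Epha6* without the forelimb (1.36) and *Sema6a* without penis 2 (-0.95) and the hindlimb (-0.91), and *Sema4f* without the forelimb, and *Sema4f* was no longer tested without penis 1 or penis 2. With cells thinned to 2000 UMIs 5 members passed, all among the 18, *Sema6d* (0.94) and *Sema3e* (-0.77) did not, and the other 11, *Ephb6*, *Sema4g*, *Sema4b*, *Epha6* and *Plxnc1* among them, were no longer tested. Calls were also lost for *Plxna2* (-0.94) with 1 more marker required, *Epha2* (1.46) and *Plxnc1* (-2.29) in DESeq2, and *Efnb2* (-0.72) with all deposited barcodes.

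Mural-like cells had 8 of 36 members passing between tissues, 3 higher and 5 lower in penis, 22.2%, against 9.85% of the 9952 genes tested, 5.59% higher and 4.26% lower (median 0.31 against 0.02). The 10 mural markers summed to 5001 to 5808 CPM in penis and 2195 to 2657 CPM in the limbs, and the 10 glial markers in these cells to 257 to 318 CPM in penis and 87.5 and 102 CPM in the limbs, with 1 to 6 of them at 0. The part of either in the calls was not tested. *Ephb1* was higher in penis, at 20.8, 30.6 and 39.8 CPM in the 3 penis libraries and 6.17 and 4.37 CPM in forelimb and hindlimb (log2 fold-change 2.45 ± 0.47, SE, adjusted p = 0.00177), opposite in direction to endothelial-like cells, a difference between the types that was not tested. The call of *Ephb1* was lost with 1 more marker required (2.06, adjusted p = 0.0189 in edgeR) and with 1 fewer (0.48, adjusted p = 0.21). *Sema3g* had no UMI in limb mural-like cells and 6.82 to 16.3 CPM in penis, at least 6.00-fold higher against a floor of 3 UMIs over both limb libraries. *Sema4b* was higher as well (2.51), and *Epha7* (-2.04), *Ephb2* (-1.84), *Efna5* (-1.67), *Sema3a* (-1.66) and *Sema3c* (-1.54) were lower. Without penis 1 or without penis 2, 5 members passed, and the calls lost without 1 library were *Sema3a* without penis 1 (-1.45) and penis 2 (-1.31) and *Sema4b* without penis 1 (2.33), penis 2 (2.56), the forelimb (3.35) and the hindlimb (2.03), and also *Sema3g* without either limb library. Without penis 1 or penis 2, *Sema3g* was no longer tested. Calls other than that of *Ephb1* were lost for *Sema3a* (-0.84), *Sema3c* (-0.90), *Sema4b* (2.33) and *Sema3g* with 1 more marker required, *Sema3a* (-1.63) and *Sema4b* (2.55) in DESeq2, and *Sema3a* (-0.93) and *Sema3c* (-0.60) with all deposited barcodes. Tendon-like cells had 7 of 37 passing, 4 higher and 3 lower, 18.9%, against 11.0% of the 9741 genes tested, 6.60% higher and 4.41% lower (median -0.13 against 0.00). The 10 mesenchyme markers summed to 5560 to 5991 CPM in penis and 2948 and 3122 CPM in limb tendon-like cells, and their part in the calls was not tested. *Epha5* stood at 358, 405 and 415 CPM in the 3 penis libraries and 139 and 147 CPM in forelimb and hindlimb (log2 fold-change 1.60 ± 0.14, SE, adjusted p = 4.07e-06), and the others were *Sema3b* (2.12), *Efna1* (2.02), *Plxna2* (1.22), *Sema4a* (-2.11), *Efna5* (-1.66) and *Efnb2* (-1.11). Without the hindlimb 4 members passed, and the calls lost without 1 library were *Plxna2* without penis 2 (0.91), penis 3 (1.32) and the forelimb (0.88), *Efna1* without penis 1 (1.81) and the hindlimb (2.05), *Efnb2* without penis 1 (-0.89), penis 2 (-0.98) and the hindlimb (-1.01) and *Sema3b* without the hindlimb (1.79), and *Efnb2* (-0.93) with 1 fewer marker required, *Efnb2* (-1.09) in DESeq2, and *Efnb2* (-0.999) with all deposited barcodes.

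Across the 7 types compared between tissues, *Efna5* and *Epha7* were lower in penis in 6 each, and *Ephb2* in 5. *Epha5* was higher in penis in 4, of which the call in leukocyte-like cells was lost with 1 more marker required. With cells reaching the mesenchyme minimum left out, the calls of *Epha7* in endothelial-like and epithelial-like cells and of *Ephb2* in leukocyte-like cells were lost, and *Ephb2* in endothelial-like and *Epha5* in leukocyte-like cells were no longer tested. These counts share libraries and, as given above, some levels in non-mesenchymal types were close to the share of mesenchyme markers, so they are not separate observations. In mural-like cells *Efna5* stood at 64.1, 56.5 and 42.1 CPM in the 3 penis libraries and 162 and 188 CPM in forelimb and hindlimb, in tendon-like cells at 50.4, 111 and 131 CPM in the 3 penis libraries and 281 and 366 CPM in forelimb and hindlimb and in glial-like cells at the values above. The limb values of *Efna5* were above the penis values in each of these. Of the 53 members, 18 passed in no type, among them *Ephb4*, *Efnb1* and *Plxna1*, 34%, and 7 passed with opposite directions in different types, 13.2%. Of the 20971 genes tested in at least 1 type, 57.1% passed in none and 3.89% with opposite directions. Of the 26 members and 8602 genes tested in all 7 types, 30.8% and 67.5% passed in none. *Plxna4* was higher in penis in 1 type and lower in 3.

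Of the ligands and receptors known to pair, some were highest in different types and some in the same type. *Sema3e* was highest in glial-like cells of both tissues and, in the limbs, at 42.8 to 80.6 CPM in epithelial-like and chondrocyte-like cells, while *Plxnd1* was highest in endothelial-like cells. *Sema7a* was highest in endothelial-like and *Plxnc1* in leukocyte-like cells, *Sema4d* in leukocyte-like and *Plxnb1* in epithelial-like and glial-like cells. *Efnb2* and *Ephb4* were both highest in endothelial-like cells, which were not split here into arterial and venous cells. RNA levels do not show that a pair met.

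The other genes of these pathways were counted in the same tests, and the share of each list is set beside that of all genes. Of 25 partners and effectors of semaphorins and plexins, 7 were higher and 7 lower in endothelial-like than in mesenchyme-like cells, 56.0% against 24.8% of all genes. Among them were *Crmp1* (3.89), a cytoplasmic mediator of Sema3a signalling, *Rnd1* (2.65), a GTPase that binds plexins, and *Dpysl4* (-3.28). In glial-like cells 3 were higher and 2 lower, 20% against 14.3%, with the neuropilin partner *L1cam* at 4.95. In leukocyte-like cells 4 were higher and 10 lower, 56.0% against 34.8%. In epithelial-like cells 4 were higher and 7 lower of 24 tested, 45.8% against 23.0%, and *Met*, a partner of plexin-B receptors, was at 2.25. For this first list the share was 44% against 28.0% in muscle-like, 32% against 12.0% in chondrocyte-like and 20% against 7.58% in mural-like cells. In tendon-like cells it was 4.17% against 2.50%, and in bone-forming-like cells 4.35% against 4.58%. Of 25 effectors and regulators of ephrins and Ephs, 6 were higher and 3 lower in endothelial-like cells, 36.0% against 24.8%. The share of this list was 24% against 23.0% in epithelial-like, 16% against 14.3% in glial-like and 40% against 34.8% in leukocyte-like cells. It was 32% against 28.0% in muscle-like and 16% against 12.0% in chondrocyte-like cells. In mural-like, tendon-like and bone-forming-like cells it was 16% against 7.58%, 8% against 2.50% and 24% against 4.58%. Between tissues in mesenchyme-like cells, where 25.3% of all genes passed, 2 of the first list were higher and 4 lower in penis, 24.0%, and of the second 1 was higher and 4 lower, 20%, neither above the share of all genes. Of 23 other guidance ligands and receptors tested there, 2 were higher and 8 lower, 43.5%, with *Ntn4* at 2.22 and the netrin receptor *Unc5a* at -2.03. The netrin receptor *Dcc* was lower in penis in mesenchyme-like, endothelial-like, mural-like, epithelial-like, leukocyte-like and glial-like cells. Its level in the other types was not set beside its mesenchyme-like level. The part of mesenchyme transcripts in these calls was not tested. The median log2 fold-changes of these lists in mesenchyme-like cells were -0.09 for partners and effectors of semaphorins, -0.26 for those of ephrins and -0.11 for the other guidance genes, against 0.00 over all genes.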

How the data were processed

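Single-cell RNA-seq libraries of P6 penis (3) and E15 forelimb and hindlimb (1 each) were used as deposited: UMI counts per gene and cell barcode, made by the authors with Cell Ranger 7.0.0 on mm10, per the labels. The study's limits on cells were applied (penis, 500 to 6000 detected genes and at most 5% mitochondrial UMIs; forelimb, 100 to 9000 and 10%; hindlimb, 100 to 9500 and 10%; complexity over 0.8), reading its limits on reads per cell as detected genes. Cells were gated by marker lists, and no doublet caller was run. Cells reaching more than 1 gate other than that of mesenchyme were left out, whereas cells reaching 1 such gate were kept in it whether or not they also reached the mesenchyme minimum. The labels and the study's methods name different substrains of C57BL/6 mice, and the labels' name is used here. Types needed 20 cells in a library. The members, marker lists and pathway lists were chosen with earlier results of these data known. Every member called in a comparison was named, up to 25 by size of the log2 fold-change, together with known ligand and receptor pairs.

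Counts were summed per library and type and tested in edgeR 4.0.16 (quasi-likelihood, TMM, filterByExpr, limma 3.58.1, R 4.3.3) with p-values adjusted over all genes. Comparisons between types took the library as a block. Counts were simulated with log2 changes well beyond the limit of 1 and the same dispersion for every gene. On them, 98.4% of 190 changed genes were recovered for endothelial-like cells between tissues (13117 genes). For endothelial-like against mesenchyme-like cells, 95.9% of 196 were recovered (17218 genes). Recovery of changes near the limit, in the measured data and in the other comparisons was not tested. Alternatives were DESeq2 1.42.0, no filter on low counts, other marker minimums, all barcodes, cells thinned to 2000 UMIs, and each library left out. Total counts were 70554067 to 162335993 UMIs per library.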

Additional observations from a re-analysis of the deposited data

Results flagged for a closer look

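The effect of tissue was tested for a difference between cell types, and the members past the limits are given here with the log2 difference between the penis over limb fold-changes. A value above 0 means a larger penis over limb ratio in the named type than in mesenchyme-like cells. Between endothelial-like and mesenchyme-like cells, the differences above 0 were *Plxna4* (3.42), *Sema4d* (2.81), *Sema7a* (1.78), *Sema4a* (1.10) and *Sema6d* (1.06). Those below 0 were *Ephb1* (-2.84), *Sema3d* (-2.50), *Sema3g* (-1.64), *Efna1* (-1.60), *Ephb2* (-1.14) and *Plxna2* (-1.05). Between epithelial-like and mesenchyme-like cells, those above 0 were *Nrp2* (2.64), *Sema5a* (1.93), *Sema4a* (1.27), *Efnb2* (1.10) and *Epha1* (1.06). Those below 0 were *Plxna4* (-2.23), *Epha5* (-2.04) and *Plxna2* (-1.01). *Sema4a* and *Plxna2* had the same direction in both comparisons, which share the mesenchyme-like cells, and *Plxna4* had opposite directions. In epithelial-like cells of every library, *Plxna4* was at no larger a share of its mesenchyme-like level than the highest mesenchyme marker.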

How the results depend on the processing

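Without the fold limit, at an adjusted p under 0.05, more members passed between tissues: 44 in mesenchyme-like (71.1% of all genes tested), 25 in endothelial-like (44.8% of all), 15 in mural-like (25.3%), 18 in epithelial-like (25.5%), 19 in leukocyte-like (53.3%), 29 in glial-like (41.8%) and 16 in tendon-like cells (26.2%). Against mesenchyme-like cells, 27 passed in mural-like (20.6% of all), 34 in glial-like (35.9%), 18 in tendon-like (8.95%) and 32 in chondrocyte-like cells (41.9%), and 21 and 17 in the tests of the difference for endothelial-like (21.3%) and epithelial-like cells (16.6%). With cells thinned to 2000 UMIs, 7 passed between tissues in endothelial-like, 5 in epithelial-like, 5 in leukocyte-like and 5 in glial-like cells, 23 in chondrocyte-like against mesenchyme-like cells and 6 in the test of the difference for endothelial-like cells. Thinning in these tests was 1 random draw. It left out cells under 2000 UMIs and gated the thinned cells anew, so the cells of a type changed along with their depth. With 1 more marker required, 3 passed in mural-like cells between tissues and 7 in tendon-like against mesenchyme-like cells. With 1 fewer, 13 and 16 passed between tissues in mural-like and tendon-like cells, and 6 and 2 against mesenchyme-like cells in mural-like and bone-forming-like cells. Without the filter on low counts, 12 passed in tendon-like cells between tissues. Without the library as a block, 8 passed in mural-like, 1 in tendon-like and 0 in bone-forming-like cells by edgeR, the last with 18 of 51 at an unadjusted p under 0.05. DESeq2 with the block called 3 in bone-forming-like cells.

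Leaving out 1 library gave 5 to 8 members between tissues in mural-like and 4 to 8 in tendon-like cells, and against mesenchyme-like cells 2 to 6 in tendon-like and 3 to 10 in bone-forming-like cells. Single members turned direction in 8 cases, 5 of them with thinned cells: *Sema3d* in endothelial-like (0.33) and *Efna1* in epithelial-like cells (-0.44) between tissues, *Epha2* in mural-like (-0.32) and *Ephb1* in muscle-like (0.51) against mesenchyme-like cells, and *Ephb2* in the test of the difference for endothelial-like cells (0.98). The others were *Sema3a* in glial-like cells between tissues with all barcodes (1.22), *Epha5* in bone-forming-like against mesenchyme-like cells with 1 fewer marker (0.11) and *Epha5* in the test of the difference for epithelial-like cells with cells reaching the mesenchyme minimum left out (0.30). The causes were not tested. Over 300 called member results, 3419 of 3807 alternatives with the same limits kept the direction and side of the limits, 336 kept the direction only, and in 44 the member was no longer tested. Thinning was not run in mural-like and tendon-like cells between tissues and in bone-forming-like cells, nor 1 more marker in tendon-like cells between tissues and in bone-forming-like cells, where fewer than 20 cells were left. No library was left out of the tests of muscle-like and chondrocyte-like cells, which rest on 2 libraries. Outside mesenchyme-like cells 32 to 45 of the 53 members passed the filter on low counts between tissues, and 9 to 27 after thinning where it was run. The 2 limb libraries of different limbs limit every comparison between tissues. Penis and limb libraries, which differ in age, were not paired, whereas comparisons between types were made within libraries.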
